A study of Homo sapiens with 4 samples.

Results

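The metallothioneins are a gene family, and 6 of its members, all on chromosome 16, were listed by name (*MT2A*, *MT1E*, *MT1X*, *MT1F*, *MT1G* and *MT1M*). Of these, *MT2A*, *MT1X* and *MT1F* (3 of 6 genes) were analysed, out of 46660 gene identifiers in the deposited table. *MT1E*, *MT1G* and *MT1M* were not analysed here. The members were found in the table by their Entrez gene identifiers. The rule uses no measured value, but the family was chosen with earlier results of these data known. The libraries came from U87MG and U251MG cells, established human glioblastoma lines. Each line gave 1 library of control cells, which carried empty vector lentivirus (pGreen, shControl in the sample titles), and 1 library of knockdown cells, in which lentiviral shRNA targeted *FLI1* (shFLI1). The paper describes puromycin selection of infected cells into mixed stable cells, but its RNA-seq section does not restate this for the sequenced cells. The labels do not say which of the shRNAs a library carries. Since each arm of a cell line is 1 library, knockdown folds within a line are unreplicated and their intervals describe counting error alone.

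Metallothioneins are small cysteine-rich proteins that bind zinc, copper and cadmium through their thiol groups. They buffer free zinc, hold toxic metals and react with oxidants. Their transcription is switched on by the zinc-sensing factor MTF1, which binds metal response elements in their promoters, and *MT2A* in particular also responds to glucocorticoids and to cytokines. In the brain, the MT1 and MT2 forms are made mainly by astrocytes. *MT2A* encodes the MT2 form, while *MT1X* and *MT1F* encode MT1 isoforms.

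On GRCh38, *MT2A* (Entrez gene 4502) lies at chr16:56608584-56609497, *MT1F* (4494) at chr16:56657731-56660698 and *MT1X* (4501) at chr16:56682470-56684196, each on the plus strand. In GENCODE, the canonical transcript of each has 3 exons, with a length of 401 nt for *MT2A*, 404 nt for *MT1X* and 425 nt for *MT1F*, and a coding sequence of 183 nt in each. The stretch before the start site is shown for *MT2A* and *MT1X* because metal response elements are the known switch of this family and the RefSeq promoter table (GRCh38.p14) held these 2 of the 3 genes. Each stretch holds the 250 bases before the start site, at chr16:56608334-56608583 for *MT2A* and chr16:56682220-56682469 for *MT1X*, plus strand, 5′ to 3′. Capitals mark the core of the metal response element, TGCACNC or TGCGCNC, on either strand.
MT2A: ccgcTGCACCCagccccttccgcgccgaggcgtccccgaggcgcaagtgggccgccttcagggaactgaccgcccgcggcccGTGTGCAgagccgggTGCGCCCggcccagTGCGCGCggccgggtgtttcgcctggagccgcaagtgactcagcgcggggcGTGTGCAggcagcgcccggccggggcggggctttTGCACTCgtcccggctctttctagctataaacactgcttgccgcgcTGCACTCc
MT1X: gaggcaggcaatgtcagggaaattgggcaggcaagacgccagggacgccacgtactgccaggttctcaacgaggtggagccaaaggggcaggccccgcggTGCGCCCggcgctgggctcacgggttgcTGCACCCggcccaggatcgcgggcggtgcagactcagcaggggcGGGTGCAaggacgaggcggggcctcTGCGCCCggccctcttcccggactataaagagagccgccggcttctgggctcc

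The core occurred 7 times before the start site of *MT2A*, and once more (1 match) at base 31 of the transcript, giving 8 matches in the promoter window, which runs 50 bases into the gene. In *MT1X* it occurred 4 times. Of 27305 RefSeq promoter windows of this length, 29.4% held at least 1 such core, 0.593% held 4 or more and 0.165% held 5 or more. An ETS site, the kind of element that FLI1 binds, was searched as the exact letters CCGGAAGT. An interferon response core (GAAANNGAA) and a glucocorticoid receptor core (AGAACA) were searched as well. These sites had 0 matches in both windows, on either strand. They occurred in 4.44%, 8.29% and 14.9% of all windows, in the order named. Variant or shorter forms of the sites were not searched, nor were bases outside the windows, so the 0 matches do not show that such elements are absent. An antioxidant response core (TGACNNNGC) occurred in 13.6% of windows and matched once (1 match) in each of *MT2A* and *MT1X*. None of these matches overlapped another. A match describes the letters only, and binding was not measured.

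Paralogous mRNAs can share reads, so the likeness of the sequences was measured. Terminal runs of A were removed first. Against the 11 other metallothionein mRNAs in GENCODE, *MT2A* shared 0 of its 301 windows of 100 nt exactly, *MT1X* 0 of 304 and *MT1F* 0 of 325. With windows of 50 nt, 16 of 351 were shared for *MT2A*, 59 of 354 for *MT1X* and 23 of 375 for *MT1F*. The longest run shared by *MT1X* with another of these mRNAs was 96 nt, with *MT1G*, and that of *MT2A* was 65 nt, also with *MT1G*. Of the analysed members, *MT1X* thus shared the longest run with a gene that was not analysed here. The deposited counts are estimates that may be divided among such genes, and the sum over *MT2A*, *MT1X* and *MT1F* is given for that reason. Reads shared with *MT1G* or with another gene that was not analysed are not covered by this sum.

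The 4 libraries held between 12229780 and 28891055 counts, and the shFLI1 library was the deeper in both cell lines. Levels are TMM-scaled CPM (counts scaled to library size after balancing the library composition). *FLI1* itself had 107 counts in U87MG control, 52 in U87MG shFLI1, 216 in U251MG control and 111 in U251MG shFLI1, or 9.34, 2.34, 12.1 and 3.71 CPM, and was lower in both libraries labelled shFLI1. *VIM*, *CD44* and *SOX2*, which mark glioblastoma and astroglial cells, had at least 1337 counts in each library, while the astrocyte marker *S100B* had 11 or fewer. Some markers moved with the arm. *GFAP*, the astrocyte filament gene, had 634 and 1587 CPM in U87MG control and shFLI1 and 20.4 and 93.8 CPM in U251MG, and *NES* and *FABP7* were also higher in both shFLI1 libraries. Of the markers of other cells, *PTPRC* (leukocytes) had 5 counts or fewer, *PECAM1* (endothelium) 3 or fewer and *RBFOX3* (neurons) 2 or fewer. *CD68*, also a leukocyte marker, had 47 and 12 counts (4.1 and 0.54 CPM) in U87MG control and shFLI1. In U251MG it had 163 and 14 counts (9.14 and 0.47 CPM). The endothelial *VWF* had 18 counts or fewer. Not all such markers were near 0. The epithelial *KRT8* had 122 and 49.3 CPM in U87MG control and shFLI1 and 460 and 362 CPM in U251MG. The neuronal *SYT1* had 18.1 and 11.7 CPM in U87MG and 27.5 and 22.2 CPM in U251MG. *CD68*, *KRT8* and *SYT1* were thus lower in CPM in both shFLI1 libraries. The part of these markers in the metallothionein values was not tested. In such bulk libraries, fewer cells of a type and less RNA per cell cannot be told apart.

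*MT2A* had the most counts of the analysed members in all 4 libraries. It had 2813 counts in U87MG control, 3221 in U87MG shFLI1, 4063 in U251MG control and 3722 in U251MG shFLI1. These were 246, 145, 228 and 124 CPM in the same order. Within each cell line the control lay above the shFLI1 library, as for 28.0% of the 16384 genes tested in both lines. In U251MG the raw count was also the smaller one in shFLI1, at a greater depth. Knockdown cells kept 59.0% of the control level in U87MG, or -0.76 as a log2 fold change (from -0.84 to -0.69 by the 95% Clopper-Pearson method). U251MG had 54.5% of control, or -0.87 (-0.94 to -0.81).

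*MT1X* had fewer counts than *MT2A* in every library, with 177 counts in U87MG control, 285 in U87MG shFLI1, 535 in U251MG control and 522 in U251MG shFLI1, or 15.5, 12.8, 30.0 and 17.4 CPM. The U251MG control stood above the other 3 libraries, and the U251MG shFLI1 library lay above the U87MG control, so the arms overlapped across the cell lines. Within U87MG the log2 fold change was -0.27, with an interval from -0.55 to 0.01 that includes 0. Within U251MG it was -0.78 (-0.96 to -0.61), 58.1% of control.

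*MT1F* had the fewest counts of the analysed members. Its counts were 73 in U87MG control, 70 in U87MG shFLI1, 154 in U251MG control and 147 in U251MG shFLI1, and its levels 6.38, 3.15, 8.64 and 4.91 CPM. Within each cell line the control again lay above the shFLI1 library. The log2 fold change was -0.996 in U87MG (-1.51 to -0.53), with 49.4% of the control level, and -0.80 in U251MG (-1.15 to -0.48), with 56.8%. Its intervals were wider than those of *MT2A* because it rests on at most 154 counts per library.

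Summed over *MT2A*, *MT1X* and *MT1F*, the 4 libraries had 267, 161, 267 and 147 CPM in the order used above. The control levels of the cell lines were close together, with a log2 ratio of U251MG over U87MG of -0.01 (95% interval -0.07 to 0.06). After knockdown the sum stood at 60.1% of its control in U87MG, or -0.73 on the log2 scale (-0.80 to -0.66), and 55.0% in U251MG, or -0.86 (-0.92 to -0.80). The plot of levels by library shows this order for each gene.

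**Figure D1:**
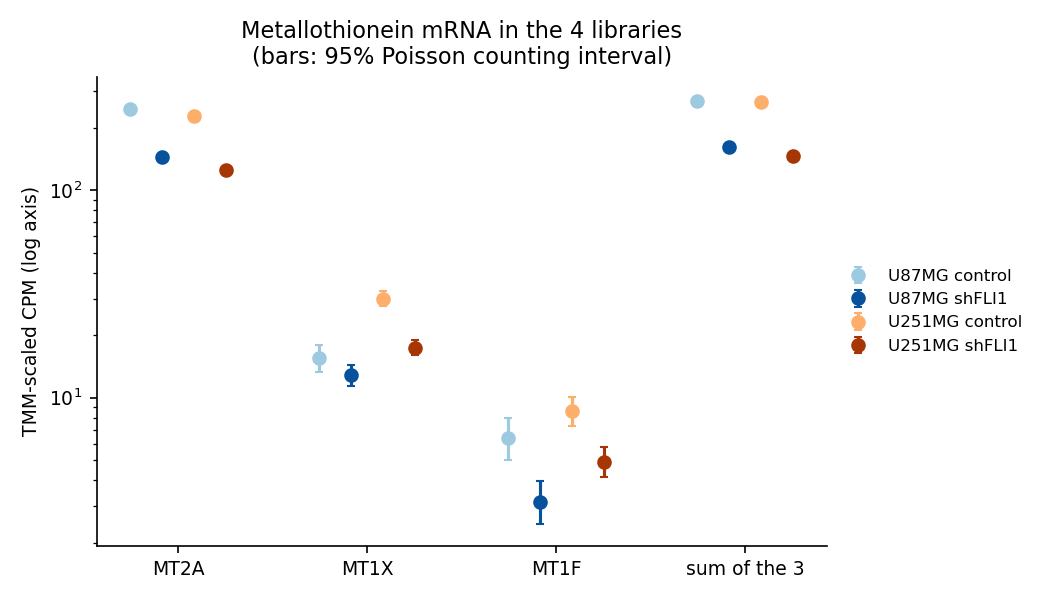
TMM-scaled CPM (log axis) of *MT2A*, *MT1X*, *MT1F* and their sum in the 4 libraries, with 1 point per library and bars for the 95% Poisson counting interval. The controls lie above the shFLI1 libraries of the same cell line for each gene, from 246 against 145 CPM for *MT2A* in U87MG to 8.64 against 4.91 CPM for *MT1F* in U251MG; the intervals of *MT1X* overlap in U87MG.

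All 3 analysed members passed the filter on low counts, and 3 of 3 had folds below 0 in both cell lines, against 28.0% of the 16384 genes tested in both. The 3 folds had a median of -0.76 (U87MG) and -0.80 (U251MG) on the log2 scale, beside 0.06 and 0.04 over all tested genes. More than 1.5-fold lower were 2 of 3 members in U87MG, against 9.92% of 17355 tested genes, and 3 of 3 in U251MG, against 8.85% of 18222. More than 2-fold lower were 0 of 3 in each cell line, against 4.45% of genes in U87MG and 4.19% in U251MG. *MT1F* in U87MG lay just inside that limit, since fold changes were taken with a prior count of 2, which draws low counts towards 0. Of all tested genes, 6.77% had a lower fold change than *MT2A* in U87MG and 5.10% in U251MG.

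**Figure D2:**
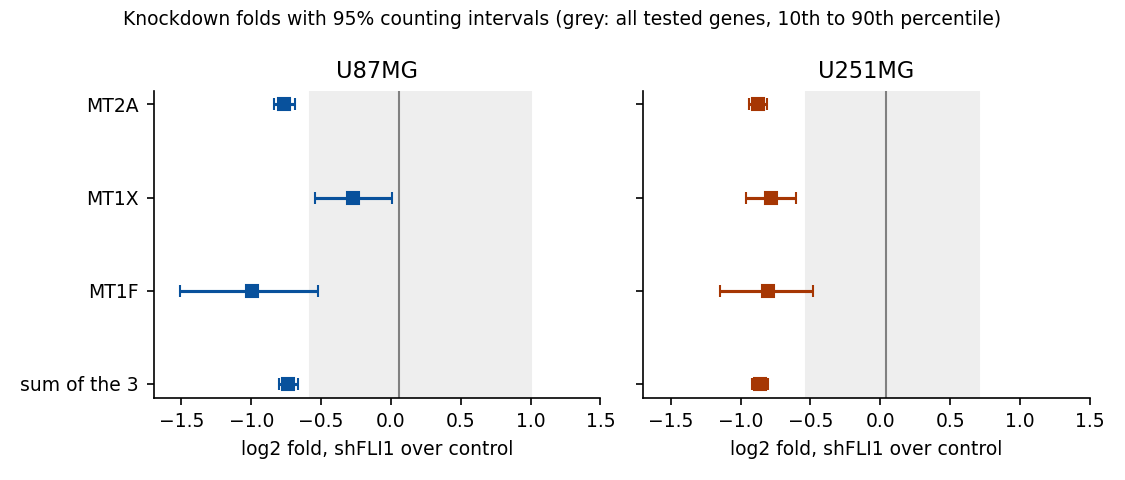
Log2 fold change (shFLI1 over control) of each gene and of their sum in U87MG (left) and U251MG (right), with bars for the 95% Clopper-Pearson counting interval. The grey band spans the 10th to 90th percentile of all tested genes and the vertical line is their median; *MT1X* in U87MG, at -0.27, is the only square inside the band.

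An effect of knockdown common to U87MG and U251MG was tested in 1 fit of the 4 libraries by edgeR's quasi-likelihood test and the cell line as a block, with the 2 lines taken as replicates, and 1 residual degree of freedom is left. *MT2A* was lower by a log2 fold change of -0.83 (SE 0.14), with a Benjamini-Hochberg adjusted P of 0.0203, lower in 2 of 2 cell lines. In the same edgeR test *MT1F* had -0.92 (SE 0.26, adjusted P 0.106) and *MT1X* had -0.56 (SE 0.19, adjusted P 0.174), and neither passed the threshold of 0.05. The count was thus 1 of 3 members, against 3.06% of 16649 genes called in either direction and 2.14% called lower. The call of *MT2A* was lost when libraries were scaled to total counts (edgeR adjusted P 0.0544) and without the cell line block (0.861, with 0 genes called, and 725 at an unadjusted P below 0.05). Over all alternatives its adjusted P from edgeR or DESeq2 ranged from 4.14e-05 to 0.861.

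With total counts as the scale, the median over all tested genes moved from 0.06 to 0.22 in U87MG and from 0.04 to 0.11 in U251MG. The sum over *MT2A*, *MT1X* and *MT1F* had -0.57 and -0.79 on that scale, and no scaling turned the direction of any analysed member. Metallothionein mRNAs are short, so other short mRNAs were set beside them. The other protein-coding genes with a canonical mRNA of at most 600 nt had a median of -0.19 in U87MG (182 genes, 10th to 90th percentile -0.61 to 0.26) and -0.01 in U251MG (181 genes, -0.44 to 0.36), against 0.00 and 0.00 for longer mRNAs. *MT2A* and *MT1F* lay below the 10th percentile of the short mRNAs in both cell lines. *MT1X* lay below it in U251MG, while in U87MG, at -0.27, it lay between the 10th and 90th percentiles and near the median of -0.19.

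The 2 knockdown folds were compared with each other for each gene. For *MT2A* the fold in U251MG was lower than in U87MG by 0.11 on the log2 scale (difference -0.11, 95% counting interval -0.21 to -0.01). For *MT1X* the difference was -0.51 (-0.83 to -0.19), and for *MT1F* it was 0.19 (-0.38 to 0.77). The interval of *MT1X* lay furthest from 0. With 1 library per arm and cell line an interaction has no residual degrees of freedom, so these differences were not tested.

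Between the cell lines, the members did not share 1 direction. In control cells *MT1X* was higher in U251MG than in U87MG by a log2 ratio of 0.95 (95% interval 0.71 to 1.21) and *MT1F* by 0.43 (0.03 to 0.86), while *MT2A* had -0.11 (-0.18 to -0.04). In shFLI1 cells the ratios were 0.44 (0.23 to 0.66), 0.63 (0.22 to 1.07) and -0.22 (-0.29 to -0.15). Over the 4 libraries, with the arm as a block, the same edgeR fit gave *MT1X* 0.62 higher in U251MG (SE 0.19, adjusted P 0.0485). It gave *MT1F* 0.47 (SE 0.26, adjusted P 0.248) and *MT2A* -0.24 (SE 0.14, adjusted P 0.301). Thus 1 of 3 members was called higher in U251MG, against 10.4% of all genes. With DESeq2 the adjusted P of *MT1X* was 0.217 and without the arm block it was 0.267 in edgeR, and it ranged from 0.00613 to 0.267 over the alternatives.

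The make-up of the summed counts of *MT2A*, *MT1X* and *MT1F* within a library does not depend on the scaling between libraries. It leaves out the listed members that were not analysed. *MT2A* took 91.8% of the summed counts of the 3 genes in U87MG control, 90.1% in U87MG shFLI1, 85.5% in U251MG control and 84.8% in U251MG shFLI1. By the authors' FPKM, which also takes transcript length into account, the shares were 92.4%, 90.6%, 86.3% and 85.6%. The order of the levels was *MT2A*, *MT1X*, *MT1F* in every library. *MT2A* had 1586, 979, 1609 and 921 FPKM, *MT1X* 97.6, 84.6, 208 and 126 FPKM, and *MT1F* 32.8, 17.5, 47.7 and 28.5 FPKM. The FPKM of *MT2A* exceeded that of 99.89%, 99.81%, 99.90% and 99.76% of the identifiers with any FPKM above 0 in the same order of libraries. The length used for each RNA is not given in the sources used here. In U87MG control, 1586 FPKM was more than 246 CPM over the 401 nt of *MT2A* would give. The rank of so short an mRNA among longer ones may therefore be raised.

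*MT1X* took 5.78% of the summed counts in U87MG control (95% Clopper-Pearson interval 4.98 to 6.66%) and 7.97% in U87MG shFLI1 (7.10 to 8.91%), so its share was the larger after knockdown there. In U251MG it took 11.3% (10.4 to 12.2%) in control and 11.9% (10.9 to 12.9%) in shFLI1 cells, and these intervals overlap. *MT1F* took 2.38% in U87MG control, 1.96% in U87MG shFLI1, 3.24% in U251MG control and 3.35% in U251MG shFLI1. The cell lines differed more in the share of *MT1X* than the arms did.

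**Figure D3:**
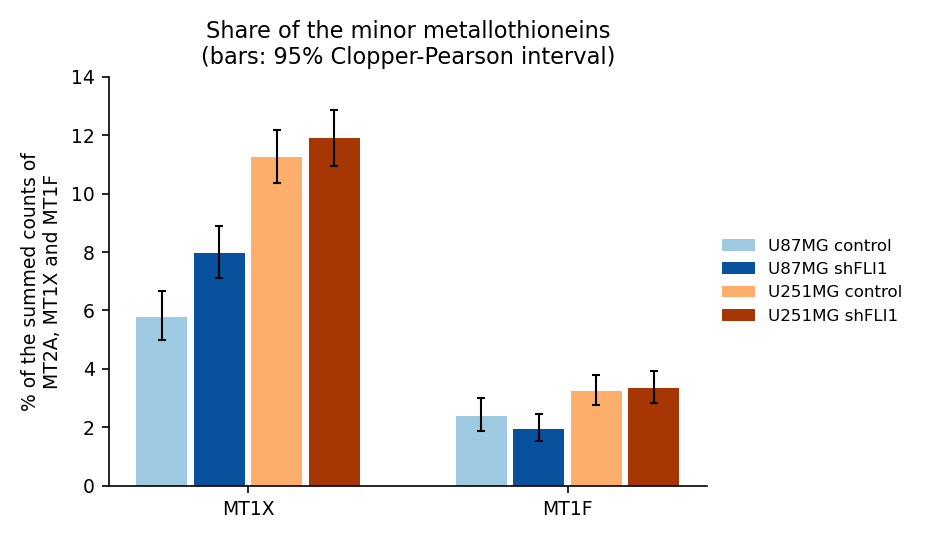
Share (%) of the summed counts of *MT2A*, *MT1X* and *MT1F* that fell on *MT1X* and on *MT1F* in each library, with bars for the 95% Clopper-Pearson interval. *MT1X* takes 5.78% and 7.97% in the U87MG libraries and 11.3% and 11.9% in the U251MG libraries.

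The genes on both sides of the cluster were set beside it. Of 9 listed neighbours on chromosome 16, 8 were tested in both cell lines, and their median folds were -0.19 (U87MG) and -0.14 (U251MG) on the log2 scale. The edgeR test called 1 of the 8, lower, against 2.14% of all genes called lower, and DESeq2 called 0 (edgeR gave 2 of the 8 an unadjusted P below 0.05). This was *CETP*, a lipid transfer protein gene named here after its values were seen, with 28 and 12 counts in U87MG control and shFLI1 and 63 and 14 in U251MG (edgeR adjusted P 0.0249). The closest neighbours, *BBS2* (a subunit of the ciliary BBSome) on the *MT2A* side and *NUP93* (a nuclear pore subunit) on the *MT1X* side, had log2 fold changes of -0.19 and -0.11, and of -0.18 and -0.18. By size among neighbours with at least 100 counts, *GNAO1* (a G protein alpha subunit) had -0.77 and -0.03 and *HERPUD1* (a gene of endoplasmic reticulum stress) had -0.33 and -0.29, with edgeR adjusted P values of 0.503 and 0.282.

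**Figure D4:**
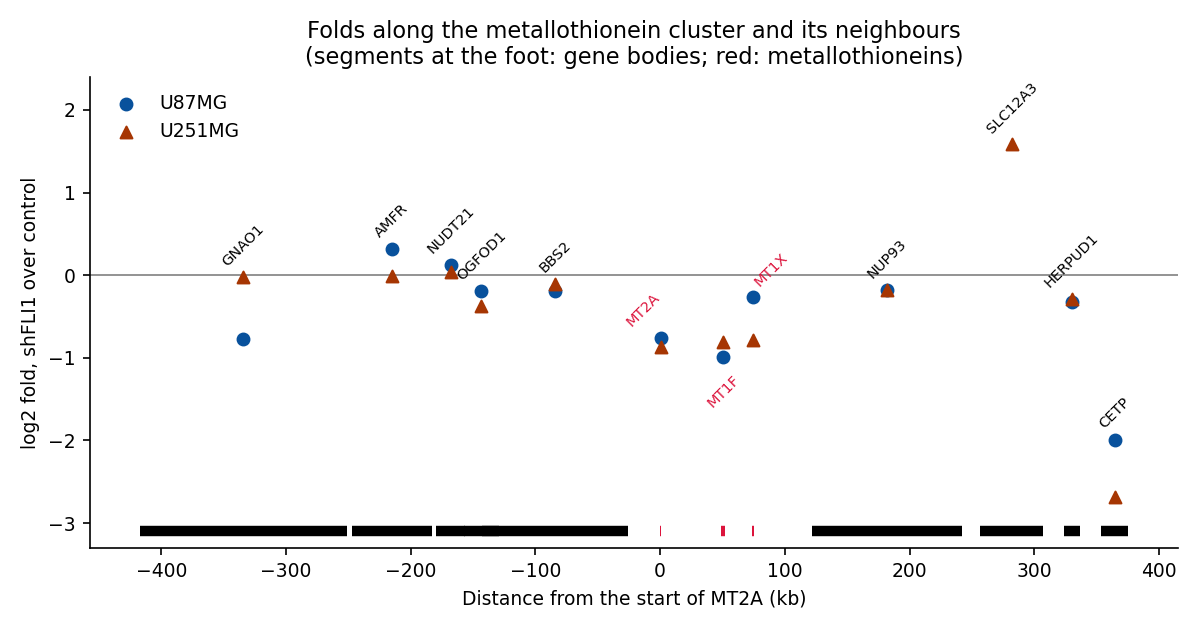
Log2 fold change (shFLI1 over control) of the analysed metallothioneins and of listed neighbours against distance from the start of *MT2A* in kb, for U87MG (circles) and U251MG (triangles); segments at the foot are gene bodies. *BBS2* and *NUP93*, which flank the cluster, lie between -0.19 and -0.11, above *MT2A* at -0.76 and -0.87; *SLC12A3* had at most 26 counts and was tested in U251MG alone.

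The zinc-sensing factor *MTF1* had 47.9 and 49.9 CPM in U87MG control and shFLI1 and 53.9 and 48.7 CPM in U251MG. Its log2 fold changes were 0.06 and -0.15 (edgeR adjusted P 0.884). *SLC30A1* encodes the zinc exporter ZnT1 and is a known MTF1 target. It had log2 fold changes of -0.18 and 0.18 (edgeR adjusted P 0.981), in opposite directions in the cell lines. The window at the start of *SLC30A1* held 2 metal response element cores, and that of *MT2A* held 8. Zinc and the activity of MTF1 were not measured, and their part in the metallothionein values was not tested. Of 24 listed zinc transporters, 16 were tested in both cell lines, and edgeR and DESeq2 each called 0 of them, with 2 at an unadjusted P below 0.05 in edgeR. Their median log2 fold changes were -0.02 and -0.01. The uptake transporters *SLC39A6* and *SLC39A10* had the largest values, with 0.77 and 0.42, and 0.43 and 0.69 (edgeR adjusted P 0.0951 and 0.0994).

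Other genes that respond to metals and oxidants gave mixed values. Of 11 listed, 10 were tested, and the edgeR test called 1, lower, against 2.14% of all genes called lower. This was *HSPA1B*, an HSP70 chaperone gene whose reads can be shared with a near-identical copy. It had log2 fold changes of -0.79 and -0.72 (edgeR adjusted P 0.0400), close to those of *MT2A*. *HMOX1*, which encodes heme oxygenase 1, had 123 and 35.8 CPM in U87MG and 40.4 and 33.3 CPM in U251MG, log2 fold changes of -1.78 and -0.28 (edgeR adjusted P 0.117). The medians of the list were -0.33 and -0.05. Of 11 genes of copper handling, the edgeR test called 1, *SCO2*, a mitochondrial copper chaperone gene, lower, with -0.71 and -0.93 (adjusted P 0.0260), against the same 2.14%. *ATP7A*, a copper-transporting ATPase gene, had 0.55 and 0.56 (edgeR adjusted P 0.0980), and the list medians were 0.26 and 0.01.

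Glucocorticoids and cytokines are other known inducers of *MT2A*. Of 10 listed genes of the glucocorticoid response, 9 were tested, and the edgeR test called 2, both lower, against 2.14% of all genes called lower. They were *CEBPD*, a transcription factor gene, with -1.06 and -0.78 (edgeR adjusted P 0.0182) and *DUSP1*, a MAP kinase phosphatase gene, with -0.62 and -1.03 (0.0260). The list medians were -0.43 and -0.16, and the receptor gene *NR3C1* had -0.01 and 0.03. The interferon response was lower in shFLI1 cells as well. All 10 listed genes were called lower by edgeR, against 2.14% of all genes, and 9 of the 10 were called by DESeq2, with median log2 fold changes of -2.30 and -3.95. *MX1*, an antiviral GTPase gene, had -3.12 and -4.39 and *OAS1*, an antiviral RNA sensor gene, had -2.94 and -4.12 (edgeR adjusted P 0.000445 and 0.000434). *MT2A*, the 1 member called lower, was thus lower in the same libraries in which the interferon genes were lower. The folds of *MT2A*, *MT1X* and *MT1F* were nearer to 0 than those of the 10 listed genes, except that *IRF9*, an interferon signalling gene named after its values were seen, had -0.96 in U87MG beside -0.996 for *MT1F*. The part of the interferon response in the metallothionein values was not tested.

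**Figure D5:**
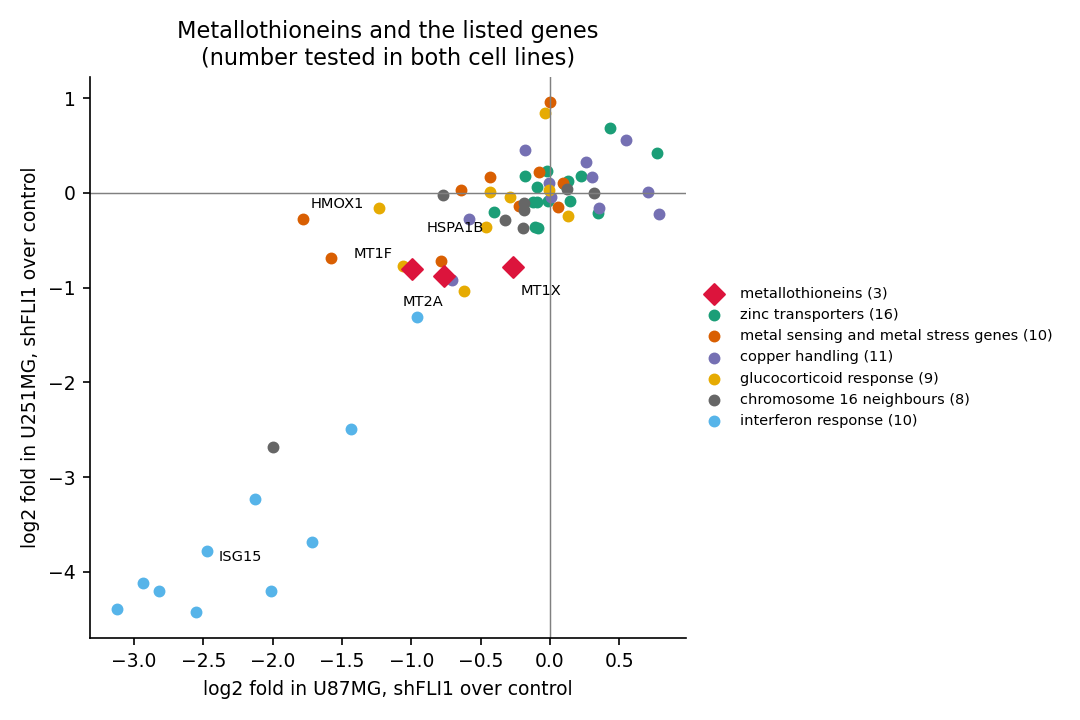
Log2 fold change (shFLI1 over control) in U87MG (horizontal axis) against U251MG (vertical axis) for the metallothioneins (diamonds) and the listed genes tested in both cell lines, coloured by list. The metallothioneins lie between -0.996 and -0.27 in U87MG and between -0.87 and -0.78 in U251MG, and the interferon genes reach -3.12 and -4.43.

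The genes whose pattern over the 4 libraries was nearest to the metallothionein sum were ranked among 9770 others with at least 100 counts in every library, by the Euclidean distance between centred log2 CPM. The 5 nearest were *CELSR3*, *E2F2*, *CCND3*, *TRIM38* and *HSPA1B*, at distances from 0.0764 to 0.114 log2 units. *CCND3*, which encodes cyclin D3, had log2 fold changes of -0.79 and -0.91, beside -0.73 and -0.86 for the sum. With 4 libraries this ranking is a description only.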

How the data were processed

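The members and gene lists were chosen with earlier results of these data known. RNA-seq of 4 libraries was analysed. The authors trimmed and filtered their reads, used HISAT2 for alignment to GRCh38 (GRCh38.p13 in the submitters' processing notes) and StringTie for FPKM. The deposited table holds an estimated count, not normalized and not always whole, and the authors' FPKM for each of 185042 linear RNAs. The tool behind the counts is not given in the sources used here. The 10 other value columns (TPM and averages) were not used.

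Counts were summed per gene identifier and rounded. Totals per library ranged from 12229780 to 28891055. TMM scaling, a prior count of 2 and edgeR's quasi-likelihood test across all genes kept by filterByExpr were used (R 4.3.3, edgeR 4.0.16), with Benjamini-Hochberg adjustment over 16649 genes; the SE is the log2 fold change over the root of F. DESeq2 1.42.0 was an alternative. Within a cell line, a gene was tested if either of its libraries had 10 or more counts. Intervals cover counting error only, since each arm of a cell line is 1 library. They also treat reads as independent molecules, which PCR reads are not. Listed genes were named by the 2 largest mean absolute log2 fold changes among those with at least 100 counts in 1 library, with *MTF1*, *SLC30A1* and *FLI1* fixed; others named are flanking genes, called genes, marker genes, *NR3C1*, *IRF9* and *HSPA6*, picked later. Sequence likeness used Python 3.11.15. The fit recovered 100% of the changes planted in simulated data, with 4 false calls. The simulated libraries had no difference between cell lines, and the planted changes were larger than that of *MT2A*. The simulation therefore does not show how the fit performs on the members.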

Additional observations from a re-analysis of the deposited data

How the results depend on the processing

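All 50 values of the folds of *MT2A*, *MT1X*, *MT1F* and their sum under other scalings, prior counts and measures were below 0, from -1.03 to -0.11, and 8 of the 50 left the counting interval of the reported value. Scaled to total counts, the sum had -0.57 in U87MG and -0.79 in U251MG. The authors' FPKM gave the sum in U251MG -0.79 at a pseudocount of 1 and -0.79 at 0.1. Past a 1.5-fold limit were 2 members in U87MG and 3 in U251MG, by construction a looser limit, and past 2-fold with DESeq2 size factors 1 member in U87MG, *MT1F*. Of the members called for the knockdown, 0 remained with total counts and 0 without the cell line block, and 2 were called with a minimum of 1 count in any library (*MT2A* and *MT1F*). Of those called between the cell lines, 0 remained with DESeq2 and 0 without the arm block. The causes were not tested. With a minimum of 100 counts in every library *MT1F* could not be fitted. Each condition has 1 library per cell line, so no replicate was left out. The low counts of *MT1F* and of *MT1X* in U87MG limit their folds.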

Other observations

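The deposited table splits each gene into several RNAs. In *MT2A* 1 RNA (NM_005953) held at least 99.97% of the counts in each library, and in *MT1X* 1 RNA (NM_005952) held at least 98.95%. In *MT1F* the main RNA (NM_005949) held between 87.8% and 93.7%, and a non-RefSeq RNA (URS0001BDF769) held 4.05% and 4.49% in the U87MG libraries and 9.27% and 8.04% in the U251MG libraries, on at most 14.3 counts. Of the 14 other metallothionein genes and pseudogenes listed, 1 was analysed, the pseudogene *MT1IP*, with 0 counts in both controls and 1 in each shFLI1 library. *HSPA6*, a stress-induced HSP70 gene, had folds of -1.58 (U87MG) and -0.69 (U251MG) on the log2 scale, on 30 counts or fewer per library, with an adjusted P of 0.256 from edgeR's quasi-likelihood test.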
